A study of Mus musculus with 3 samples.

Results

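The genes described here are the netrin and Slit guidance ligands and their receptors: Ntn1, Slit1, Slit2, Slit3, Robo1, Robo2, Robo3, Dcc, Unc5b and Unc5c. They are a list of named genes, drawn up with earlier results of these data known and found by symbol, and the rows carrying these symbols were 10 of the 32285 genes in each count matrix. The data were spatial transcriptomes of 3 cryosections of the mouse embryonic axial skeleton, 1 each from E11.5, E12.5 and E13.5 (days after conception), taken for a study of intervertebral disc formation. Each 10 µm section was laid on a Visium array, whose spots are 55 µm across, 100 µm apart and can each cover several cells. The labels named bone as the tissue and gave no strain, genotype, sex or number of embryos, and the stage of a section was read from its title. With 1 section per stage, a difference between stages cannot be told apart from a difference between embryos, body levels or planes of section.

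Netrin and Slit proteins are secreted cues that steer growing axons and migrating cells. Netrin-1 attracts axons through DCC and repels them through UNC5 receptors, while Slits repel through ROBO receptors, and in the spinal cord the floor plate is a classical source of netrin-1 and Slits at the ventral midline. ROBO3 is a divergent ROBO of commissural neurons that is needed for their axons to cross this midline, and the family also acts outside the nervous system, in blood vessels, muscle and skeletal tissue.

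Spots with at least 1000 UMIs (unique molecular identifiers, 1 per captured molecule) were used, which kept 1561 of 1563 spots at E11.5, 1014 of 1014 at E12.5 and 1360 of 1365 at E13.5, with medians of 27048, 24385.5 and 20943.5 UMIs per spot. Within each section spots were put into exclusive contexts by 4 genes that are not under test: T spots with at least 1 UMI of T, the notochord factor also called Brachyury; Shh spots with Shh, the hedgehog ligand, but no T; and, of the rest, Tubb3-high spots (top 10% by Tubb3, a neuronal tubulin) and Col2a1-high spots (top 10% by Col2a1, cartilage collagen). In the order E11.5, E12.5 and E13.5 there were 103, 120 and 175 T spots, 98, 81 and 78 Shh spots without T, 146, 90 and 110 Tubb3-high spots and 124, 58 and 90 Col2a1-high spots. Levels are counts per 1000000 UMIs (CPM) of the summed spots of a context. They compare 1 gene across contexts, not genes with each other, and in a spot fewer cells of a type and less RNA per cell cannot be told apart.

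Judged by the neuron and cartilage lists, the names of Tubb3-high and Col2a1-high spots held in each section. The name of Shh spots held at E11.5 and E12.5 and, by the notochord list, that of T spots at E13.5 alone. The summed level of 9 neuron markers in Tubb3-high spots was 8251, 8148 and 3591 CPM and that of 11 cartilage markers in Col2a1-high spots 1551, 7463 and 26655 CPM, against 1015, 908 and 185 CPM and 244, 621 and 1731 CPM in spots outside all 4 contexts. Tubb3-high spots of E13.5 were mixed. They held cartilage markers at 2198 CPM and endothelial markers at 464 CPM, against 1731 and 313 CPM outside all 4 contexts. Their neural progenitor markers were at 95.8 CPM, against 174 CPM there. With 1 threshold over all sections, 15 spots were Tubb3-high at E13.5 and 14 were Col2a1-high at E11.5. Shh spots without T carried floor plate markers at E11.5 and E12.5 (list sums of 443 and 648 CPM), whereas at E13.5 they carried gut and lung markers at 918 CPM, against 47.4 and 28.8 CPM, and epithelial markers at 378 CPM. Heart markers summed to 2475 CPM in the Shh spots of E11.5, against 50.01 CPM in Tubb3-high, 225 CPM in Col2a1-high and 1496 CPM in the remaining spots. Most T spots rested on a single UMI of T (81 of 103, 84 of 120 and 130 of 175), and 26, 56 and 17 of them also held Shh, so the T spots are not spots without Shh. Noto, a defining notochord gene, had no UMI in any context. The 8 notochord markers summed to 798, 776 and 1086 CPM in T spots, against 1831, 1618 and 510.0 CPM in Tubb3-high spots, so T spots were the highest context for this list at E13.5 but below Tubb3-high spots at E11.5 and E12.5. In T spots the neuron list stood at 1781, 1110.2 and 609.5 CPM and the cartilage list at 594, 2701 and 5518 CPM, so these spots held much tissue other than notochord. Col2a1-high spots of E13.5 were shallow, with a median of 5113.5 UMIs. The 3 sections shared 345 spot barcodes, which are printed array positions and not cells.

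Among the ligands, Ntn1 (chr11:68209364-68386826), which encodes netrin-1, was lowest in Tubb3-high spots. Positions are those of RefSeq on GRCm38.p6. Its level in Tubb3-high spots was 4.38, 34.3 and 15.9 CPM in the E11.5, E12.5 and E13.5 sections. In Shh spots without T it was 72.4, 175 and 32.1 CPM, in T spots 35.2, 61.02 and 49.9 CPM and in Col2a1-high spots 27.8, 64.5 and 29.7 CPM. In each section the Tubb3-high spots were below the other 3 contexts, and the order of those 3 differed between sections: Shh spots led at E11.5 and E12.5, and T spots led at E13.5.

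Set against Tubb3-high spots, Ntn1 was higher in Shh spots without T by a fitted log2 fold change of 2.49 (edgeR quasi-likelihood test, Benjamini-Hochberg adjusted p = 0.00502; section log2 ratios 2.46 ± 1.51, SD, n = 3 sections). Calls were repeated under 14 alternatives (other filters, scalings, tools, spot thresholds and fits, and each section left out), and this one held in 10 of 14 alternatives (edgeR or DESeq2 adjusted p from 1.19e-05 to 0.166) but not without the E11.5 section (adjusted p = 0.166) or without the E12.5 section (adjusted p = 0.0683). Ntn1 was also higher in T spots than in Tubb3-high spots, by 1.71 (edgeR adjusted p = 0.0162; section ratios 1.81 ± 1.09, SD, n = 3). The T spot call held in 8 of 14 alternatives (edgeR or DESeq2 adjusted p from 0.00196 to 0.223) but not without the E11.5 section (adjusted p = 0.137) or without the E12.5 section (adjusted p = 0.123). Against Col2a1-high spots the Tubb3-high spots had a fitted log2 difference of -1.35 (edgeR adjusted p = 0.0468). This last call held in 4 of 14 alternatives (edgeR or DESeq2 adjusted p from 0.0182 to 0.532) but not without the E11.5 section (adjusted p = 0.246) or without the E12.5 section (adjusted p = 0.160).

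Slit1 (chr19:41597824-41747275) was low in cartilage-marked spots. Col2a1-high spots held 14, 3 and 0 Slit1 UMIs, or 5.06, 2.58 and 0 CPM, where the 0 allows up to 4.70 CPM. Shh spots without T held 28.9, 46.4 and 1.72 CPM, Tubb3-high spots 14.8, 20.6 and 7.95 CPM and T spots 19.6, 5.40 and 4.67 CPM. Spots outside all 4 contexts held 4.52, 5.05 and 1.34 CPM, so the low level was not particular to Col2a1-high spots. The E12.5 Shh spots were the highest of all, and the E13.5 Shh spots, with 3 UMIs, were among the lowest. Slit1 was higher than in Col2a1-high spots both in Shh spots without T (log2 fold change 3.01, edgeR adjusted p = 0.0342) and in Tubb3-high spots (2.42, edgeR adjusted p = 0.0203). For Shh spots the call stood in 9 of 14 alternatives (edgeR or DESeq2 adjusted p from 0.00354 to 0.317) but not without the E11.5 section (adjusted p = 0.179) or without the E12.5 section (adjusted p = 0.317). For Tubb3-high spots it stood in 9 of 14 alternatives (edgeR or DESeq2 adjusted p from 0.00257 to 0.162) but not without the E11.5 section (adjusted p = 0.103) or without the E12.5 section (adjusted p = 0.0978).

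Slit2 (chr5:47981291-48307735), a ligand made by motor neurons as well as by the floor plate, was highest in neural and Shh spots of the earlier sections. Tubb3-high spots held 157, 148 and 34.9 CPM and Shh spots without T 101, 199 and 54.96 CPM. T spots were below both at E11.5 and E12.5, at 77.5, 84.5 and 37.7 CPM, and Col2a1-high spots were lowest in each section, at 36.1, 14.6 and 10.96 CPM. At E13.5 the level in Tubb3-high spots had an exact 95% Poisson interval of 27.6 to 43.5 CPM, which lay below the 43.97 to 49.9 CPM of the spots outside all 4 contexts. Slit2 was higher in Tubb3-high than in Col2a1-high spots by a log2 fold change of 2.29 (edgeR adjusted p = 0.00325; section ratios 2.33 ± 0.88, SD, n = 3). The call held in 13 of 14 alternatives (edgeR or DESeq2 adjusted p from 1.41e-05 to 0.0653) but not without the E12.5 section (adjusted p = 0.0653). The excess of Shh spots over Col2a1-high spots was 2.37 (edgeR adjusted p = 0.0236; section ratios 2.48 ± 1.15, SD, n = 3). That excess passed in 10 of 14 alternatives (edgeR or DESeq2 adjusted p from 0.000106 to 0.316) but not without the E11.5 section (adjusted p = 0.0772) or without the E12.5 section (adjusted p = 0.316). For T spots against Col2a1-high spots the edgeR adjusted p was 0.144 at a log2 fold change of 1.61, and DESeq2 gave an adjusted p of 0.0251.

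Slit3 (chr11:35121456-35708507), the Slit with known roles in mesenchyme such as the diaphragm and the heart, showed the opposite arrangement at the earlier stages. Its level in Col2a1-high spots was 36.9, 50.7 and 18.8 CPM and in Tubb3-high spots 11.8, 14.4 and 26.9 CPM. T spots held 20.6, 50.5 and 17.5 CPM and Shh spots without T 18.5, 36.6 and 24.6 CPM. Tubb3-high spots were the lowest context at E11.5 and E12.5 and the highest at E13.5. The fitted difference of Tubb3-high from Col2a1-high spots was -1.07 on the log2 scale (edgeR adjusted p = 0.0359; section ratios -0.99 ± 1.27, SD, n = 3), lower in 2 of 3 sections. It kept its call in 6 of 14 alternatives (edgeR or DESeq2 adjusted p from 0.000454 to 0.384) but not without the E11.5 section (adjusted p = 0.384) or without the E12.5 section (adjusted p = 0.335).

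**Figure D1:**
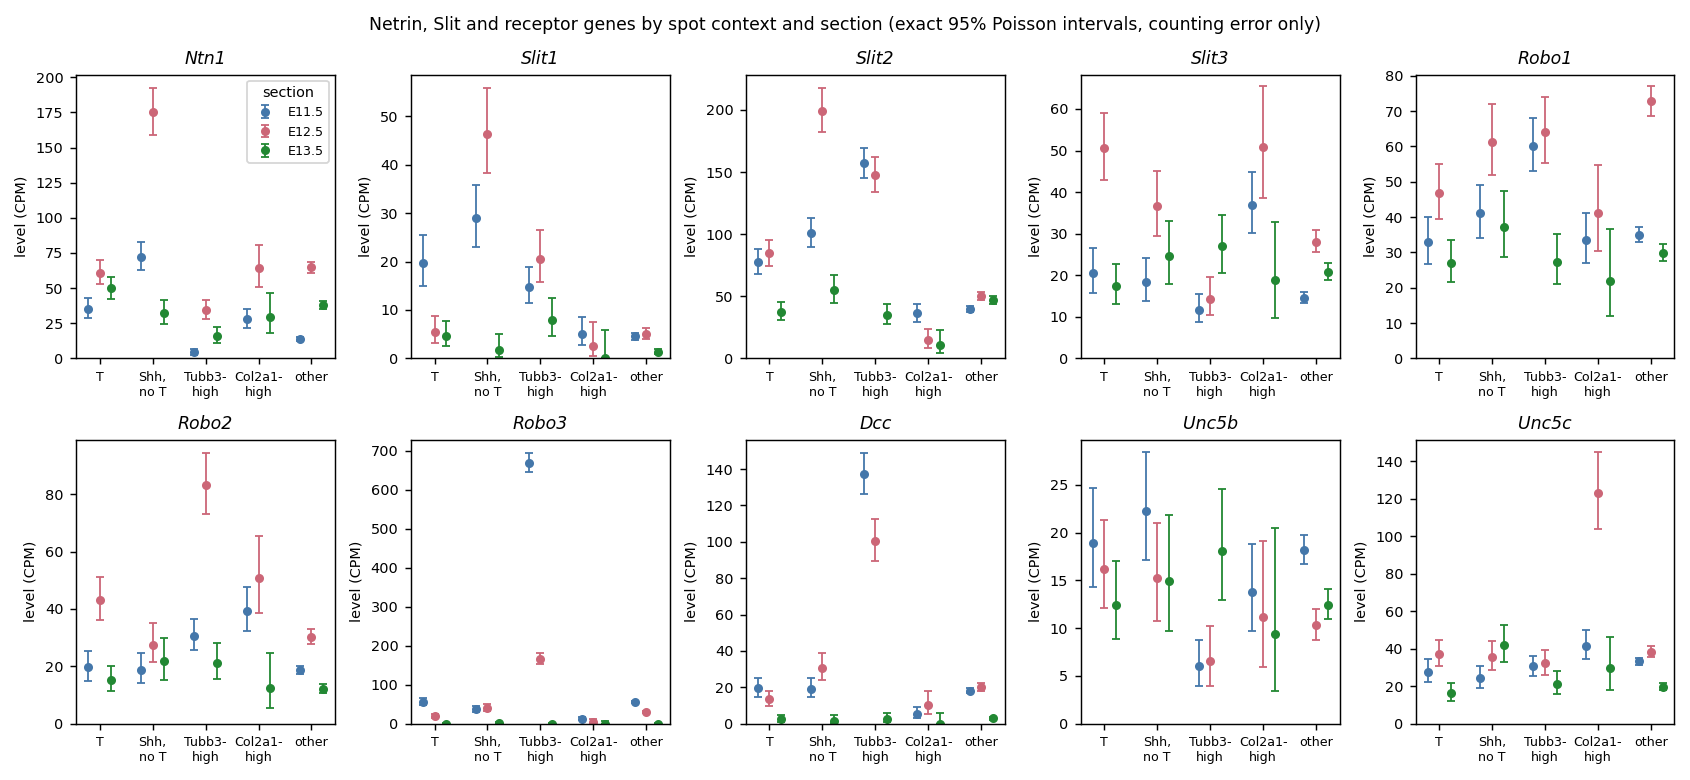
Level of each gene in CPM (y axis, linear, a separate scale for each gene) in the 5 groups of spots (x axis) of the E11.5, E12.5 and E13.5 sections (colours); points are summed spots and bars exact 95% Poisson intervals, which cover counting error only. Robo3 and Dcc stand out in the Tubb3-high spots of E11.5 and E12.5, Ntn1 and Slit1 in the Shh spots of the same sections, and Unc5c in the Col2a1-high spots of E12.5.

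The Robo receptors differed in how closely they followed the neuronal context. Robo1 (chr16:72027518-73047491), the general Slit receptor, was broad. It held 60.2, 64.1 and 27.4 CPM in Tubb3-high spots, 41.1, 61.2 and 37.2 CPM in Shh spots without T, 32.8, 46.7 and 27.1 CPM in T spots and 33.6, 41.3 and 21.9 CPM in Col2a1-high spots, so in none of the sections did contexts differ by as much as 3-fold. The excess of Tubb3-high over Col2a1-high spots was 0.67 on the log2 scale (edgeR adjusted p = 0.0296; section ratios 0.58 ± 0.28, SD, n = 3). This small difference was called in 6 of 14 alternatives (edgeR or DESeq2 adjusted p from 0.0115 to 0.370) but not without the E11.5 section (adjusted p = 0.198) or without the E12.5 section (adjusted p = 0.167).

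Robo2 (chr16:73891976-75447443), a Slit receptor of many neuron types, was found in both neural and cartilage-marked spots. Tubb3-high spots held 30.7, 83.3 and 21.2 CPM, Col2a1-high spots 39.4, 50.7 and 12.52 CPM, T spots 19.6, 43.2 and 15.3 CPM and Shh spots without T 18.8, 27.5 and 21.8 CPM. Col2a1-high spots led at E11.5 and Tubb3-high spots at E12.5, and at E13.5 the intervals of the Tubb3-high and Shh spots overlapped (15.6 to 28.1 and 15.4 to 29.9 CPM). Its 1 call was a lower level in Shh spots without T than in Tubb3-high spots, -0.85 on the log2 scale (edgeR adjusted p = 0.0449; section ratios -0.75 ± 0.82, SD, n = 3). The Robo2 call remained in 5 of 14 alternatives (edgeR or DESeq2 adjusted p from 0.00329 to 0.552) but not without the E11.5 section (adjusted p = 0.269) or without the E12.5 section (adjusted p = 0.552).

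Robo3 (chr9:37416045-37433436) was highest in the Tubb3-high spots of E11.5 and E12.5. Tubb3-high spots held 2902, 486 and 0 UMIs, or 669, 167 and 0 CPM, and Col2a1-high spots 12.7, 5.16 and 0 CPM. T spots held 56.2, 18.4 and 0 CPM and Shh spots without T 36.9, 40.7 and 1.72 CPM. At E11.5 and E12.5 the Tubb3-high spots were above every other context with no overlap of counting intervals, while at E13.5 no context had more than 6 UMIs and the 0 in Tubb3-high spots allows up to 1.32 CPM. The fit gave Tubb3-high spots 5.41 more than Col2a1-high spots on the log2 scale (edgeR adjusted p = 0.000137), a difference that rests on the E11.5 and E12.5 sections. It held in 13 of 14 alternatives, with adjusted p from 7.26e-06 to 0.105, the highest in the edgeR fit without the section as a block.

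Relative to Tubb3-high spots, Robo3 was lower in T spots (-3.35, edgeR adjusted p = 0.00124) and in Shh spots without T (-2.999, edgeR adjusted p = 0.00340). The T spot difference passed in 11 of 14 alternatives (edgeR or DESeq2 adjusted p from 1.92e-05 to 0.279) but not without the E11.5 section (adjusted p = 0.0505) or without the E12.5 section (adjusted p = 0.0577). The Shh spot difference passed in 10 of 14 alternatives (edgeR or DESeq2 adjusted p from 7.31e-05 to 0.313) but not without the E11.5 section (adjusted p = 0.214). Shh spots still exceeded Col2a1-high spots in Robo3, by 2.41 (edgeR adjusted p = 0.0472). That weaker call was kept in 4 of 14 alternatives (edgeR or DESeq2 adjusted p from 0.0234 to 0.765) but not without the E11.5 section (adjusted p = 0.140) or without the E12.5 section (adjusted p = 0.438) or without the E13.5 section (adjusted p = 0.0504). Shh spots without T also held neuron markers (1306, 3112 and 149 CPM, against 722, 237 and 197 CPM in Col2a1-high spots), and the part of these in the Robo3 difference was not tested.

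Dcc (chr18:71253613-72351228), the attractive netrin receptor, followed the same contexts as Robo3. Its levels were 137, 100.5 and 2.65 CPM in Tubb3-high spots and 5.42, 10.3 and 0 CPM in Col2a1-high spots. T spots held 19.6, 13.3 and 2.49 CPM and Shh spots without T 19.1, 30.8 and 1.72 CPM. The Tubb3-high spots of E11.5 and E12.5 were far above the rest, and all contexts of E13.5 were below 3 CPM. Dcc was higher in Tubb3-high than in Col2a1-high spots by a log2 fold change of 3.92 (edgeR adjusted p = 0.000353), and this held in 13 of 14 alternatives, with adjusted p from 7.43e-08 to 0.0660. Against Tubb3-high spots it was lower in T spots (-2.54, edgeR adjusted p = 0.00247) and in Shh spots without T (-2.10, edgeR adjusted p = 0.00744). In T spots the call held in 11 of 14 alternatives (edgeR or DESeq2 adjusted p from 8.42e-05 to 0.188) but not without the E11.5 section (adjusted p = 0.0899) or without the E12.5 section (adjusted p = 0.124). In Shh spots it held in 11 of 14 alternatives (edgeR or DESeq2 adjusted p from 0.000388 to 0.294) but not without the E11.5 section (adjusted p = 0.255) or without the E12.5 section (adjusted p = 0.0801).

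Of the UNC5 receptors, which mediate repulsion by netrin, neither was led by neural spots at E11.5 or E12.5. Unc5b (chr10:60762594-60831581), known from endothelial cells, held 5.99, 6.51 and 18.1 CPM in Tubb3-high spots, 18.95, 16.2 and 12.46 CPM in T spots, 22.3, 15.2 and 14.9 CPM in Shh spots without T and 13.7, 11.2 and 9.39 CPM in Col2a1-high spots. Tubb3-high spots were its lowest context in the first 2 sections and its highest at E13.5, and it passed the test in 0 of the 6 comparisons (edgeR; unadjusted p under 0.05 in 1, Shh without T against Tubb3-high spots, log2 fold change 0.85, adjusted p = 0.110; DESeq2 called 0). Without the E13.5 section it was called in 3, lower in Tubb3-high than in Col2a1-high spots (log2 fold change -0.92, edgeR adjusted p = 0.0336) and higher than in Tubb3-high spots in Shh spots (1.56, edgeR adjusted p = 0.00225) and in T spots (1.5, edgeR adjusted p = 0.00194). The same 3 were called with 1 threshold for all sections.

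Unc5c (chr3:141465564-141834924), known for axon repulsion and cerebellar cell migration, was highest in cartilage-marked spots at E11.5 and E12.5. Col2a1-high spots held 41.6, 123 and 29.7 CPM, Tubb3-high spots 30.7, 32.2 and 21.2 CPM, T spots 27.8, 37.2 and 16.5 CPM and Shh spots without T 24.4, 35.7 and 41.8 CPM. The E12.5 Col2a1-high level stood alone, with an interval of 104 to 145 CPM, and at E13.5 the Shh spots led. Tubb3-high spots were below Col2a1-high spots by a fitted log2 difference of -1.05 (edgeR adjusted p = 0.0310; section ratios -0.96 ± 0.84, SD, n = 3), lower in 3 of 3 sections. The Unc5c call held in 7 of 14 alternatives (edgeR or DESeq2 adjusted p from 0.00721 to 0.516) but not without the E11.5 section (adjusted p = 0.0541) or without the E12.5 section (adjusted p = 0.516).

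Slit3 and Unc5c, the ligand and the receptor that were both lower in Tubb3-high than in Col2a1-high spots and for which a window outside the annotated gene was at hand, are shown by the 250 bases before their RefSeq start (GRCm38.p6, both on the + strand). Capitals mark GGGCGG or its complement CCGCCC, the core of the GC box.
Slit3, chr11:35121206-35121455: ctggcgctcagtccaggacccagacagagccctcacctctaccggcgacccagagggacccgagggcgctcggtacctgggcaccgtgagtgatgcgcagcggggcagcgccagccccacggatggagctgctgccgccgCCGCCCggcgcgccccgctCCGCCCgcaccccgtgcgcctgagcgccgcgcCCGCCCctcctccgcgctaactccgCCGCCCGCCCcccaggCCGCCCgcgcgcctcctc
Unc5c, chr3:141465314-141465563: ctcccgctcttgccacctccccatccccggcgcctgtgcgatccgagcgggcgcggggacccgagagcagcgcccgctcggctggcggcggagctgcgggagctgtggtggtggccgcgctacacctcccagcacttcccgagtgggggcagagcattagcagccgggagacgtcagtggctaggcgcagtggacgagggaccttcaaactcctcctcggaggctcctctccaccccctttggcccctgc
Slit3 held 6 GGGCGG matches on the 2 strands, some of them overlapping, and Unc5c held 0, where 32.7% of the 32851 windows of the table held at least 1. The windows had 35 and 23 CG dinucleotides against a median of 6. Neither held TATAAA (12.4% of all windows) or TGTTTAC, a forkhead-type motif (3.17% of all windows), on either strand. A match is a string of letters, and none of these was tested for binding. RefSeq windows were matched for 7 of the 10 genes.

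Counted over all 10 genes, the comparison with most calls was that of Tubb3-high with Col2a1-high spots. There 5 members were called higher (Slit1, Slit2, Robo1, Robo3 and Dcc) and 3 lower (Ntn1, Slit3 and Unc5c), where edgeR called 21.8% of the 13326 tested genes higher and 19.4% lower. Their median log2 fold change was 0.47, against -0.01 over all genes. In Shh spots without T against Col2a1-high spots 3 were higher (Slit1, Slit2 and Robo3) and 0 lower, against 3.26% and 2.59% of all genes, with medians of 0.86 and 0.02. In Shh spots against Tubb3-high spots Ntn1 was higher and 3 were lower (Robo2, Robo3 and Dcc), against 11.4% and 14.8% of all genes, with medians of 0.17 and 0.02. In T spots against Tubb3-high spots Ntn1 was higher and 2 were lower (Robo3 and Dcc), against 15.2% and 17.5%, with medians of -0.52 and 0.01. All 10 passed the low-count filter. Of these 18 calls, 1 (Slit2 in Tubb3-high against Col2a1-high spots) was kept when the section was not used as a block in the edgeR fit, and 8 when each pair of contexts was fitted alone. Without the E13.5 section 17 of the 18 were kept and 11 others were added. These were Dcc (higher), Robo2 and Unc5c (lower) in Shh against Col2a1-high spots, Unc5b (lower) in Tubb3-high against Col2a1-high spots, Slit3 and Unc5b (higher) in Shh against Tubb3-high spots, and Slit3 and Unc5b (higher) and Slit2, Robo1 and Robo2 (lower) in T against Tubb3-high spots. These comparisons share contexts, so their counts are not independent of each other.

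Neither comparison of the T spots with the Shh or Col2a1-high spots gave a call for a member. For Shh without T against T spots edgeR called 0 of 10 members (0 at an unadjusted p under 0.05; DESeq2 called 0) against 0.015% of all genes called higher and 0% lower. For T against Col2a1-high spots edgeR called 0 of 10 members against 0% of all genes in either direction, while 5 members (Slit1, Slit2, Robo3, Dcc and Unc5c) had an unadjusted p under 0.05 and DESeq2 called 1, Slit2. Fitting these 2 contexts alone called 4 (Slit1, Slit2 and Robo3 higher, Unc5c lower), and adjusting p over all 6 comparisons called 3 (Slit2 and Robo3 higher, Unc5c lower). Slit1 differed by 1.86, Robo3 by 2.05, Dcc by 1.39 and Unc5c by -1.14 on the log2 scale, with edgeR adjusted p of 0.222, 0.142, 0.260 and 0.145. In the fits with the section as a block, the scatter behind the p-values is how far differences between contexts vary among the 3 sections. In the fit to all 15 sums it is taken over all 5 contexts, whereas the SD of section ratios covers the 2 contexts compared. Each section is of its own stage, so replicate embryos of a stage do not enter this scatter.

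**Figure D2:**
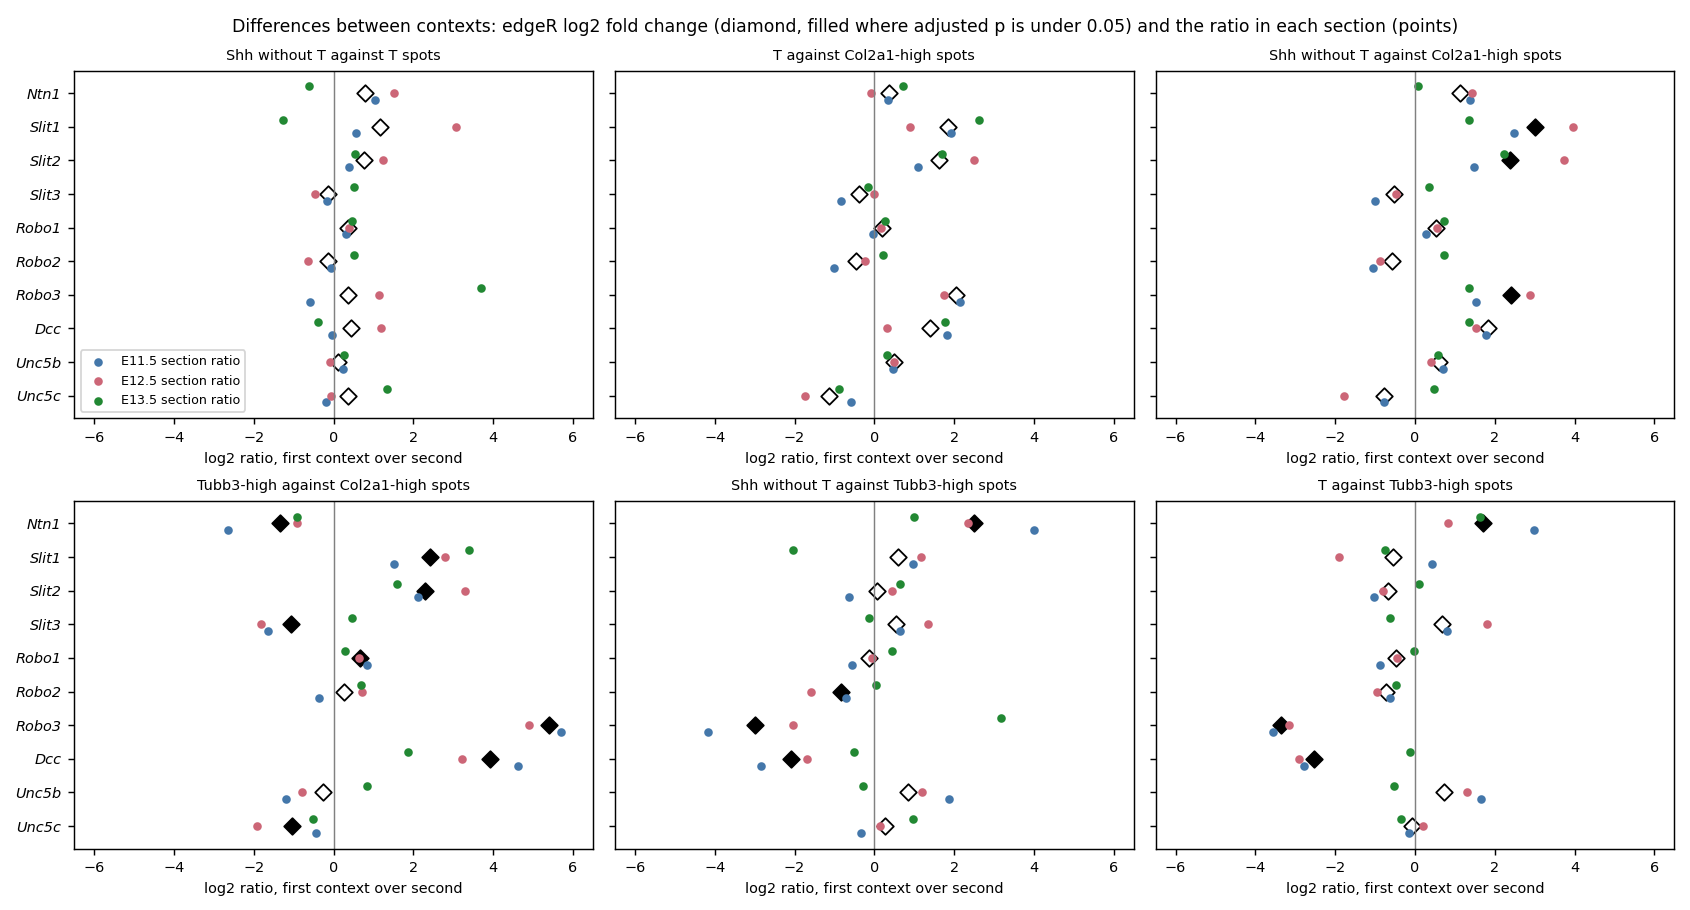
Log2 ratio of the first context over the second (x axis) for the 10 genes (y axis) in the 6 comparisons (panels); diamonds are edgeR fold changes, filled where the adjusted p is under 0.05, and coloured points the ratio within the E11.5, E12.5 and E13.5 sections, computed with 0.5 UMI added. The E13.5 points often lie apart from the other 2, as for Slit1 and Robo3 in Shh spots against Tubb3-high spots, and a section with no UMI in both contexts has no point.

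Grouping the spots without T by their own Shh UMIs showed where the ligand signal of the Shh spots lay. In spots with at least 3 Shh UMIs (14, 11 and 9 spots in the sections of E11.5, E12.5 and E13.5) Ntn1 stood at 279, 726 and 27.7 CPM, against 38.9, 55.9 and 30.8 CPM in spots with 1 Shh UMI and 13.9, 60.3 and 35.7 CPM in spots with none. Slit1 stood at 126, 217 and 3.96 CPM against 13.4, 9.12 and 0.881 CPM, and Slit2 at 296, 578 and 35.6 CPM against 72.97, 99.7 and 59.9 CPM. The levels of all 3 ligands were thus highest in the few Shh-rich spots at E11.5 and E12.5, and not at E13.5. Most of their UMIs lay elsewhere: all Shh spots without T held 24.6% and 23.4% of the Ntn1 UMIs of E11.5 and E12.5, 22.99% and 41.4% of Slit1 and 11.4% and 24.4% of Slit2.

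The same spots carried floor plate genes at the earlier stages. Spon1, a floor plate matrix protein, was at 557, 1329 and 7.92 CPM and Foxa2, a floor plate and endoderm factor, at 67.8, 113 and 31.7 CPM. Epcam, an epithelial adhesion molecule, was at 109, 0 and 325 CPM, so the Shh-rich spots of E13.5 were epithelial and not floor plate by these markers. Neural crest and Schwann markers in these spots summed to 1989, 2062 and 7.92 CPM, against 362, 515 and 129 CPM in spots without T or Shh, and their part in the ligand levels was not tested. Of the receptors, Robo3 was at 21.8, 69.9 and 0 CPM against 121, 48.01 and 0.252 CPM in spots without T or Shh, and Dcc at 12.1, 42.9 and 0 against 30.7, 31.3 and 2.82 CPM, both lower at E11.5 and higher at E12.5. Robo1 was at 29.1, 69.9 and 31.7 against 37.7, 69.7 and 29.4 CPM and Robo2 at 31.5, 15.8 and 35.6 against 21.5, 39.3 and 13.03 CPM. Unc5b was at 4.85, 9.02 and 7.92 against 16.5, 9.79 and 12.9 CPM, and Unc5c, at 12.1, 13.54 and 47.5 against 33.5, 42.5 and 20.1 CPM, was lower at E11.5 and E12.5 and higher at E13.5. Bins hold 9 to 14 spots of 1 section each, so their intervals cover counting error and not differences between embryos.

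**Figure D3:**
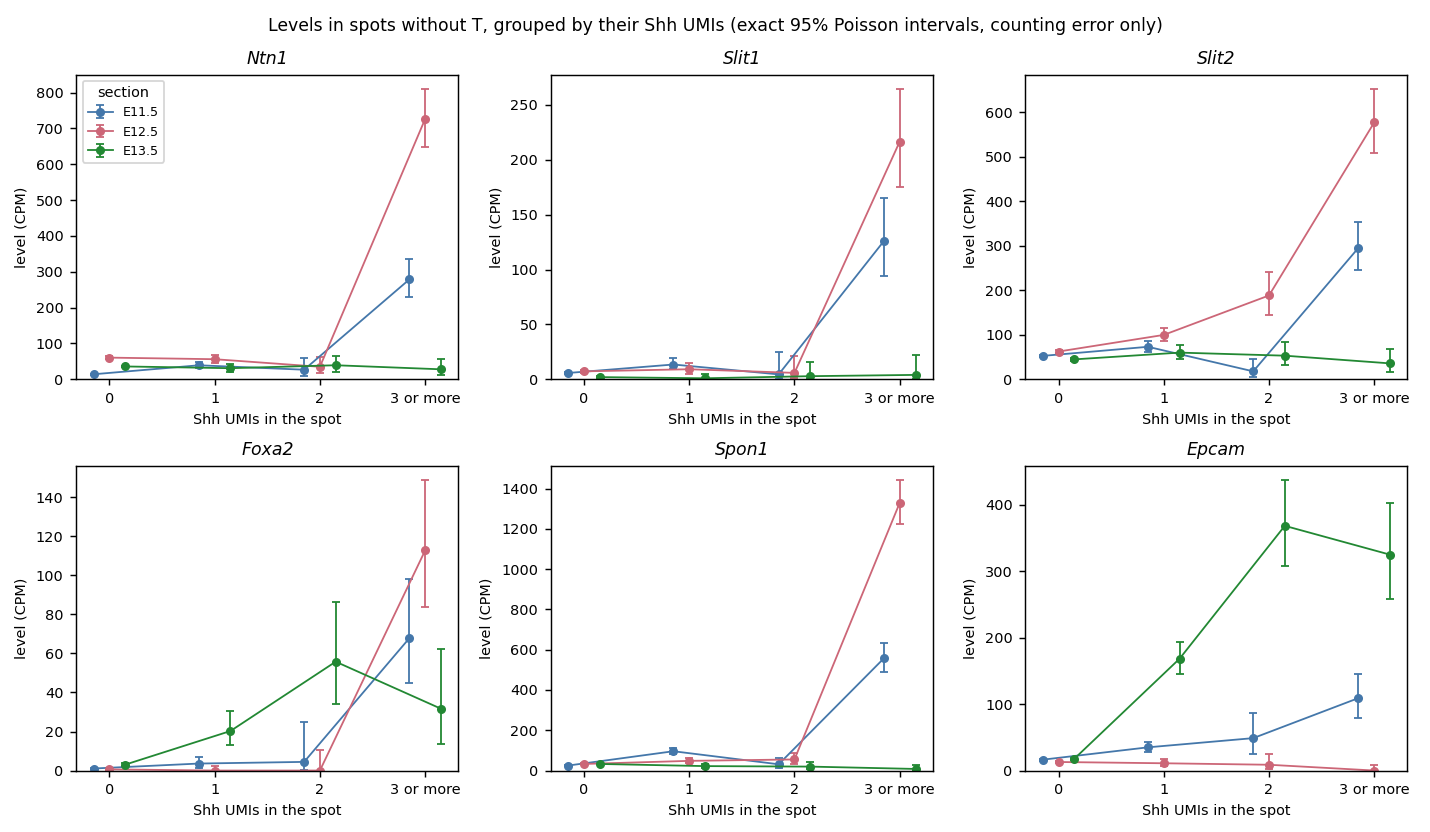
Level in CPM (y axis, linear) of the ligands Ntn1, Slit1 and Slit2 and of the markers Foxa2, Spon1 and Epcam in spots without T grouped by 0, 1, 2 or at least 3 Shh UMIs (x axis), for each section (colours), with exact 95% Poisson intervals for counting error. Ligands, Spon1 and Foxa2 peak in the last group at E11.5 and E12.5, while at E13.5 Epcam is high and the ligands are flat.

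Shh spots without T were also split by whether neuron and neural progenitor UMIs exceeded epithelial ones, which gave 87, 76 and 30 spots where they did and 11, 5 and 48 others. The first set held Tubb3 at 386, 652 and 24.03 CPM against 49.4, 96.3 and 10.9 CPM and Sox2, a neural progenitor factor also found in foregut, at 76.1, 40.02 and 8.41 against 28.2, 7.40 and 29.5 CPM, so at E13.5 it was not neural by these genes. Sox2 is itself on the neural progenitor list that made the split, so its excess at E11.5 and E12.5 is partly built in. Ntn1 was at 79.6, 181 and 48.1 CPM in the first set and 7.05, 74.05 and 17.5 CPM in the others. Slit1 was at 32.1, 49.2 and 3.60 CPM in the first set, and the others held 0 Slit1 UMIs in each section. For Ntn1 at E11.5 the ratio was 11.3, with an exact 95% interval of 3.08 to 93.8 for counting error, since the 11 other spots held 2 UMIs. Slit2 was at 110.1, 208 and 45.7 against 14.1, 51.8 and 63.4 CPM, and at E13.5 alone the others were not lower.

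In T spots with at least 2 UMIs of T (22, 36 and 45 spots) Slit1 was at 31.5, 11.6 and 18.97 CPM, against 17.2, 3.06 and 1.86 CPM in spots with 1 UMI of T and 7.32, 11.46 and 1.92 CPM in spots without T. At E13.5 these spots held 10 Slit1 UMIs, and Car3, a carbonic anhydrase, was at 353, 243 and 3211 CPM over the 3 sections. Neuron markers there summed to 1189.8, 515 and 165 CPM, below the 1774, 2058 and 485 CPM of spots without T, and neural crest and Schwann markers to 477, 288 and 419 CPM, against 386, 537 and 126 CPM, higher at E11.5 and E13.5. In the top 5% of spots by the neural crest and Schwann list Slit1 was at 15.1, 6.47 and 12.2 CPM against 7.74, 10.98 and 1.62 CPM elsewhere, and the part of these cells in the Slit1 level of T spots was not tested. Ntn1 in T spots with at least 2 UMIs of T was at 49.2, 60.5 and 55.003 CPM and Slit2 at 118, 125 and 22.8 CPM, against 17.9, 72.8 and 35.4 CPM and 55.8, 77.2 and 45.4 CPM in spots without T, so neither was higher in all 3 sections.

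Marker lists for 19 tissues grouped the same spots in another way. They ranked all spots with at least 1000 UMIs, those of the 4 contexts included, so list spots and context spots can be the same spots. In each section the top 5% of spots by a list were set against all others, and a gene was counted when its level differed at least 2-fold in 3 of 3 sections. Slit2 was so counted in floor plate spots, at 177, 285 and 86.1 CPM against 52.1, 66.3 and 42.5 CPM elsewhere, where 0.621% of 17233 genes were higher. Slit1 was counted in neuron spots, at 20.5, 28.7 and 9.58 CPM against 7.34, 9.28 and 1.77 CPM, where 7.09% of genes were higher. These were the only higher pairs, 2 of the 190 pairs of a member and a list, or 1.05% where 1.58% of pairs over all genes were higher. Lower by the same rule was Robo3 in sensory ganglion, neural crest and Schwann, cartilage, sclerotome, tendon, smooth muscle and endothelial spots. At E13.5 Robo3 had 9 UMIs, in 8 of 1360 spots, so the top spots of a list could hold none whatever the tissue. Its lower counts therefore rest on E11.5 and E12.5. Dcc was lower by the rule in cartilage, skeletal muscle and heart spots, Slit1 in tendon, epithelial and erythroid spots and Robo2 in skeletal muscle spots. Ntn1 in motor neuron and Unc5c in neural progenitor spots, given below, were lower too. For the other lower pairs the share over all genes is not given. They are listed by the rule alone, and whether they exceed that share was not tested. With the top 10% of spots the Slit2 count was lost, and Slit1 was counted in neuron spots and in neural crest and Schwann spots. Lower pairs kept were Unc5c in neural progenitor spots, Robo3 in cartilage, sclerotome and tendon spots and Dcc in cartilage and skeletal muscle spots. Slit1 in epithelial and erythroid spots was kept as well. The other lower pairs were lost, and Slit1 in smooth muscle spots was added as lower.

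Other placements held in some sections. Ntn1 stood in floor plate spots at 150.0, 353 and 55.7 CPM against 13.47, 55.3 and 36.1 CPM, high at E11.5 and E12.5. In motor neuron spots Ntn1 was low in each section, at 5.82, 14.7 and 11.2 CPM against 19.9, 75.6 and 38.6 CPM, where 5.84% of genes were at least 2-fold lower in 3 of 3 sections, a count lost with the top 10% of spots. Slit2 in motor neuron spots was at 293, 228 and 37.9 CPM against 42.8, 66.9 and 44.9 CPM, high at E11.5 and E12.5 but not at E13.5.

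At E12.5 neuron spots held less Robo3 than neural progenitor spots. The Robo3 level was 211, 42.6 and 0 CPM in neuron spots, 31.8, 24.3 and 0 CPM in motor neuron spots and 136, 288 and 0 CPM in neural progenitor spots, over sections with 111, 43.7 and 0.313 CPM in all. Dcc was at 81.3, 90.5 and 4.19 CPM in neuron spots and 46.7, 118 and 1.75 CPM in neural progenitor spots. Unc5c was low in neural progenitor spots in each section, at 8.90, 13.7 and 9.31 CPM against 33.3, 42.5 and 21.8 CPM, where 6.38% of genes were lower.

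Outside neural tissue Unc5b was high in heart spots of the 2 sections whose heart markers were abundant, at 54.1, 13.3 and 58.6 CPM against 14.2, 11.001 and 10.7 CPM; the heart list summed to 16062, 76.2 and 15738 CPM in these spots, so E12.5 held almost none. In endothelial spots Unc5b was at 26.1, 29.97 and 28.2 CPM against 16.5, 10.03 and 12.2 CPM. Slit3 in cartilage spots was at 47.1, 88.7 and 15.2 CPM against 15.2, 28.9 and 21.2 CPM, and Robo2 at 61.7, 48.6 and 10.8 CPM against 19.7, 38.3 and 13.9 CPM, both higher at E11.5 and E12.5 but not at E13.5.

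**Figure D4:**
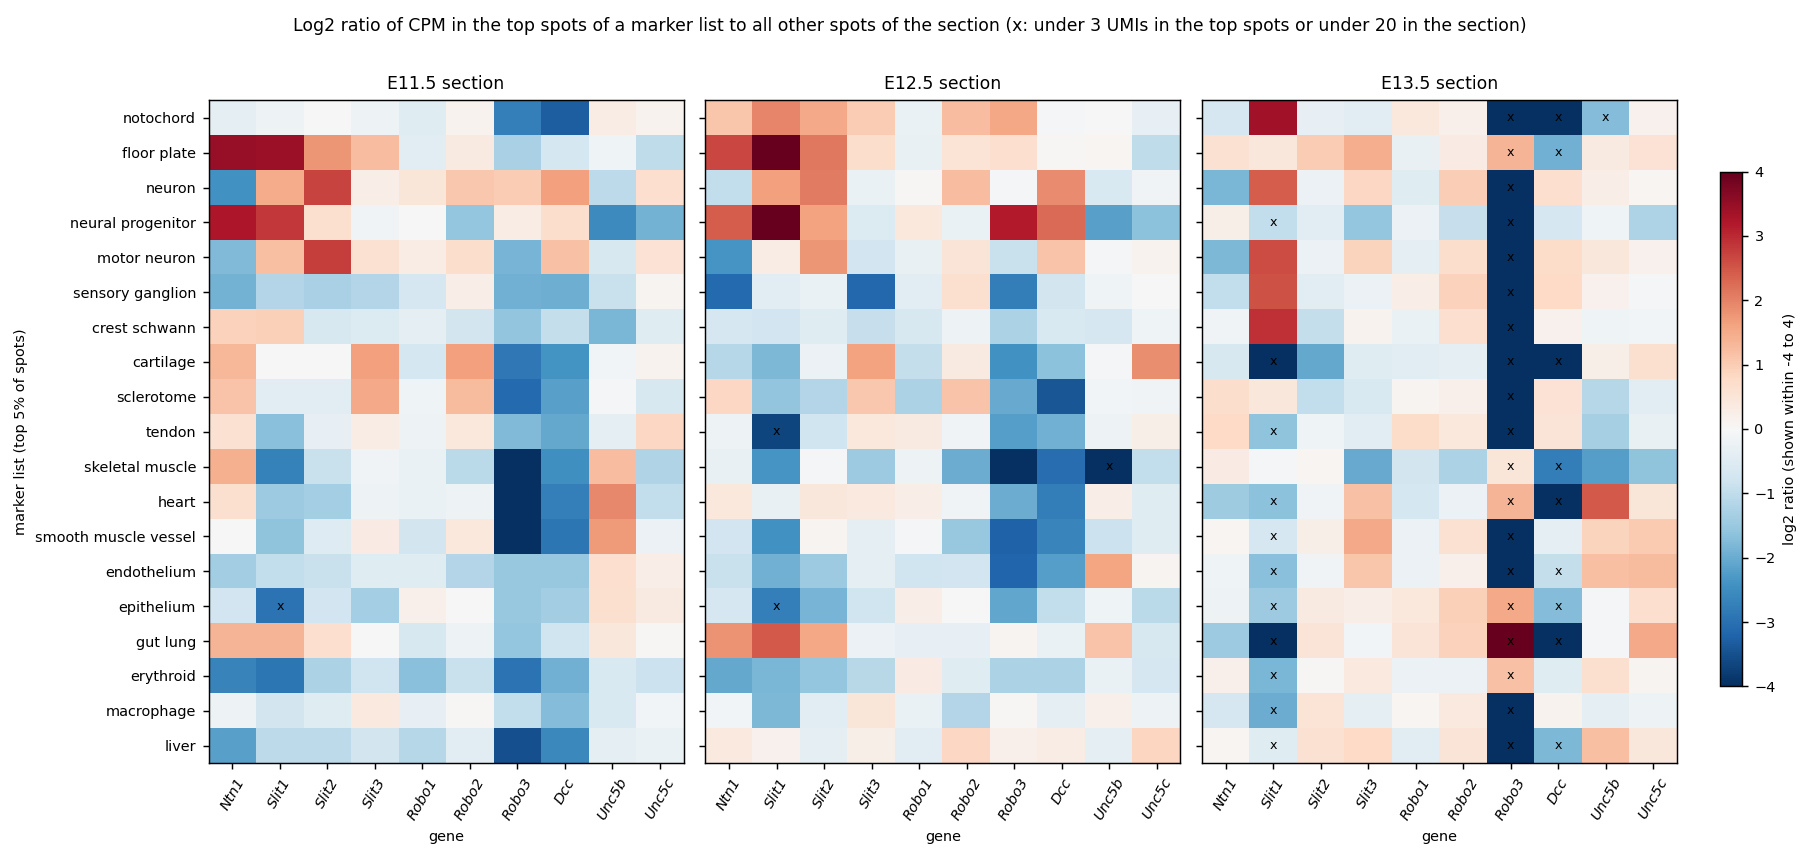
Log2 ratio of the level in the top 5% of spots by each of 19 marker lists (rows) to that in all other spots of the section, for the 10 genes (columns) in the E11.5, E12.5 and E13.5 sections (panels); red is higher, blue lower, and a cross marks under 3 UMIs in the top spots or under 20 in the section. At E11.5 and E12.5 the floor plate row is red for Ntn1, Slit1 and Slit2 and the neuron row red for Slit1 and Slit2 but blue for Ntn1, and Robo3 at E13.5 has too few UMIs to read.

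Over all spots of a section, Robo3 and Dcc were much lower at E13.5. Robo3 was at 111, 43.7 and 0.313 CPM in the E11.5, E12.5 and E13.5 sections, with 4945, 1113 and 9 UMIs, so E13.5 was 139-fold below E12.5 (exact 95% interval 73.2 to 306, counting error). Dcc was at 29.2, 29.1 and 2.71 CPM, 10.7-fold lower at E13.5 than at E12.5 (8.48 to 13.7). Slit1 was at 8.14, 10.7 and 2.23 CPM, 4.81-fold lower at E13.5 than at E12.5 (3.65 to 6.42). Against E11.5, E13.5 was at least 2-fold lower for these 3 of 10 members and at least 2-fold higher for 0, where 9.09% of 16746 genes were lower and 16.2% higher.

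Neural content was lowest at E13.5 too: the Tubb3 UMIs were 21801, 12323 and 2238, in sections of 44358610, 25490744 and 28750314 UMIs. Even in Tubb3-high spots the neuron list was at 8251, 8148 and 3591 CPM. That list was close to level between E11.5 and E12.5, while Robo3 was already lower at E12.5. Motor neuron markers in those spots were at 427, 549 and 982 CPM, and neural progenitor markers at 469.7, 308 and 95.8 CPM, the latter lowest at E13.5. The part of the neural tissue cut by each section in the Robo3 and Dcc differences was not tested. The remaining genes spanned a narrower range. Ntn1 was at 19.1, 71.4 and 37.04 CPM, 3.74-fold higher at E12.5 than at E11.5 (3.44 to 4.06). Slit2 was at 57.3, 78.1 and 44.5 CPM and Slit3 at 16.3, 31.1 and 21.1 CPM, and both, like Ntn1, were highest at E12.5. So were Robo1 at 37.6, 66.02 and 29.6 CPM, Robo2 at 21.2, 38.6 and 13.8 CPM and Unc5c at 32.5, 41.2 and 21.01 CPM, while Unc5b, at 17.04, 11.1 and 12.97 CPM, was highest at E11.5.

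**Figure D5:**
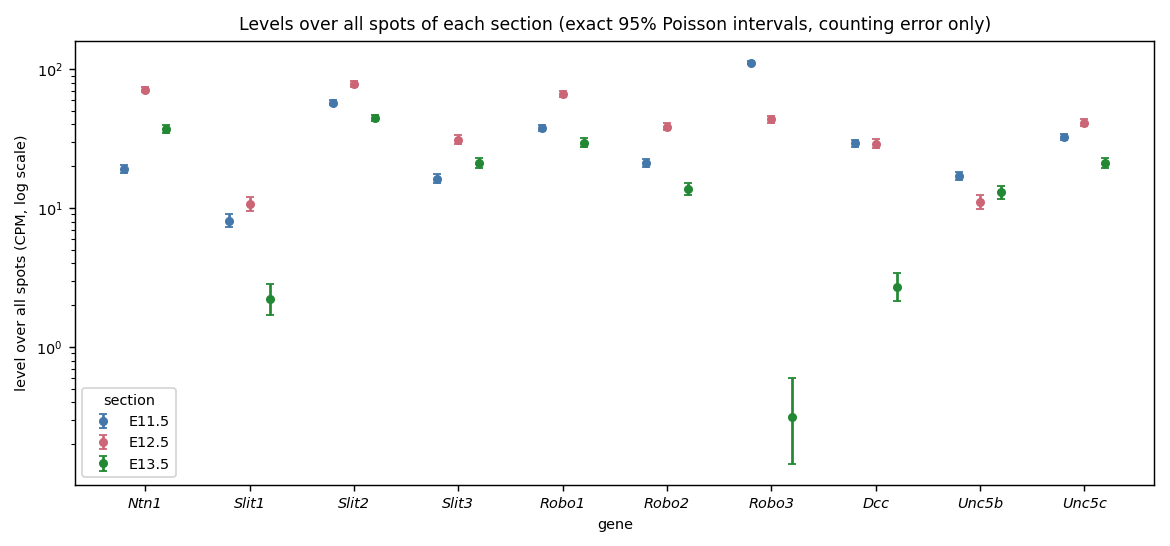
Level over all spots of a section in CPM (y axis, log scale) of the 10 genes (x axis) in the E11.5, E12.5 and E13.5 sections (colours), with exact 95% Poisson intervals for counting error and 1 section per stage. Robo3, Dcc and Slit1 drop at E13.5, while the other 7 genes stay within 4-fold between sections.

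UMIs of some members sat in few spots. At E12.5, 13 of 1014 spots held 50% of the Slit1 UMIs, with up to 26 UMIs in a spot, and 21 spots held 50% of the Robo3 UMIs. For Robo1 it took 184 spots, and for Slit3 138. Shh spots without T held 41.4% of the E12.5 Slit1 UMIs, where they held 9.55% of all UMIs. Tubb3-high spots of E11.5 held 58.7% of Robo3 and 45.9% of Dcc UMIs, where they held 9.78% of all UMIs.

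Of 30 other genes of the pathway, 25 could be tested. In Tubb3-high against Col2a1-high spots edgeR called 11 higher and 3 lower (median log2 fold change 0.94 over the 25, against -0.01 over all genes). Of all tested genes, 21.8% were called higher and 19.4% lower there. Besides Dscam, the 5 higher genes with the largest change were Trim67 (4.07) and Trim9 (4.04), ubiquitin ligases that act in the netrin response, Draxin (3.63), a secreted DCC ligand, Unc5d (3.36), an UNC5 receptor, and Nell2 (3.21), a ROBO3 ligand. Dscam, a further netrin receptor, had 10.6, 24.001 and 4.86 CPM in Tubb3-high spots and 0 UMIs in the Col2a1-high spots of each section, which is at least 9.78-fold higher at E11.5 and at least 9.30-fold higher at E12.5, against 3 UMIs per section.

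The 3 lower genes were Flrt2 (-1.63), an UNC5 ligand, Ntn3 (-1.24), another netrin, and Srgap2 (-1.001), a GTPase-activating protein that binds ROBO1. Its relative Srgap3 went the other way (2.12). Draxin, for example, was at 70.1, 57.9 and 17.7 CPM in Tubb3-high spots and 8.31, 3.44 and 0 CPM in Col2a1-high spots, and Flrt2 at 17.3, 24.001 and 76.8 against 99.4, 176 and 75.1 CPM, lower in 2 of 3 sections. In Shh spots against Col2a1-high spots 4 of the 25 were higher (Dscam, Trim9, Nell2 and Ablim1) and 2 lower (Ntn3 and Srgap2), against 3.26% and 2.59% of all genes. Against Tubb3-high spots 2 were higher and 11 lower in Shh spots, and 4 higher and 12 lower in T spots, with Draxin at -2.57 and -2.89. The shares over all genes were 11.4% higher and 14.8% lower for Shh spots and 15.2% and 17.5% for T spots. For Shh without T against T spots edgeR called 0 (2 at an unadjusted p under 0.05) and for T against Col2a1-high spots 0 (9 at an unadjusted p under 0.05).

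Across the 15 sums of 5 contexts in 3 sections, which share libraries and depth by section, members resembled each other in places. Pearson's r of log2(CPM + 1) was 0.945 for Robo3 with Dcc, 0.830 for Slit2 with Slit1, 0.827 for Dcc with Robo1 and 0.187 for Slit1 with Ntn1. The genes most like Robo3 were Gm27032 (0.978), Lhx1os (0.972) and Mir124-2hg (0.971), and those most like Dcc were Gm27199 (0.966), Nova1 (0.963) and Rnf165 (0.962). For Slit2 they were Ephb1 (0.938), Epha5 (0.927) and A730046J19Rik (0.909), the first 2 encoding Eph guidance receptors. For Slit1 they were a gene whose symbol is used more than once (0.925), Adgra1 (0.909) and Fabp7 (0.900). For Ntn1 they were Ghdc (0.868), Tcea1 (0.857) and Qk (0.850), and for Slit3 Smox (0.910), Cdc26 (0.901) and Fbxl7 (0.901).

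For the broader receptors, the likest genes were Psmb3 (0.942), Vangl2 (0.933) and Idi1 (0.902) for Robo1 and Rtf1 (0.949), Tesk1 (0.931) and Ube2g1 (0.926) for Robo2. For Unc5b they were Qpct (0.902), Clpb (0.880) and Ifitm1 (0.864), and for Unc5c 5430416N02Rik (0.911), Phrf1 (0.889) and Nxf1 (0.881). These are the highest values among all tested genes over 15 points, and they describe these sections alone.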

How the data were processed

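Each section came as raw UMI counts of genes by spots, and per the file headers these count matrices were written by Space Ranger 1.2.0 and deposited by the authors. STAR and mm10 are named in the submitters' processing notes. How spots were selected before deposit, and which annotation was used, is not given in the sources used here. Depth was 44359910, 25490744 and 28754555 UMIs for E11.5, E12.5 and E13.5.

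The members and all lists were chosen with earlier results of these data known. UMIs were summed per section and context, spots in both the Tubb3-high and Col2a1-high sets being left out (9 at E13.5), into 15 sums, since spots are not replicates. edgeR 4.0.16 (R 4.3.3; filterByExpr, TMM, glmQLFit, glmQLFTest) was fitted to all 15 with the section as a block, and p was adjusted (Benjamini-Hochberg) over 13326 genes at 0.05. DESeq2 1.42.0 was an alternative. On data simulated for T against Col2a1-high spots with 13030 genes, 192 of 198 changed genes and 11 unchanged genes were called. The simulation used large changes, the same spread for every gene and no difference between sections. It therefore does not measure how often smaller or more variable changes would be called. Named were all 10 members, the called genes of a list of 30 other pathway genes (up to 6 per direction), and the 3 genes with the highest correlation to a member with at least 100 UMIs. Spots were ranked by a marker list on the average of log2(UMIs scaled to 10000 + 1) of its genes. Genes with at least 20 UMIs entered the list counts. Exact intervals and the limit allowed by a 0 (3 UMIs) cover counting error. No doublet caller was used, because spots can hold several cells, and spot positions and images were not used here. Tables and figures were made in Python 3.11.15 (pandas 2.3.3, scipy 1.17.1, numpy 2.4.6, matplotlib 3.10.9).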

Additional observations from a re-analysis of the deposited data

Results flagged for a closer look

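In 5 member comparisons 1 section moved one way and another the opposite way beyond counting error. With 1 section per stage the difference between stages was not tested. Ntn1 in Shh spots without T against T spots had a log2 ratio of 1.52 at E12.5 and -0.63 at E13.5, a difference of 2.15. Robo3 in the same comparison stood at 1.14 at E12.5 and -0.60 at E11.5, 1.74 apart. Slit1 in Shh spots against Tubb3-high spots differed by 3.20, between 1.17 at E12.5 and -2.03 at E13.5. Slit2 there had 0.65 at E13.5 and -0.64 at E11.5, 1.29 apart. Slit3 in T spots against Tubb3-high spots had 1.80 at E12.5 and -0.63 at E13.5, a difference of 2.42. The Shh spots of E13.5 carried epithelial and lung markers and its Tubb3-high spots fewer neuron markers than the other sections, and the part of these in the differences was not tested.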

How the results depend on the processing

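Counts of called genes below follow the order Shh against T, T against Col2a1-high, Shh against Col2a1-high, Tubb3-high against Col2a1-high, Shh against Tubb3-high and T against Tubb3-high spots, with 2, 0, 780, 5491, 3500 and 4347 in the analysis reported. With no replicate block for the section, edgeR called 0, 0, 2, 2581, 133 and 105, and 1 of the 18 member calls was kept. No pairing beyond the section itself exists, since each stage has 1 section. Fitting the 2 contexts compared alone gave 8, 1016, 185, 2623, 1325 and 1111 and kept 8 of 18. Leaving out 1 section gave ranges of 0 to 3, 0 to 121, 3 to 1225, 1640 to 6742, 0 to 5589 and 270 to 6400. Without E11.5, without E12.5 and without E13.5, 3, 3 and 17 of the 18 member calls were kept, and 0, 0 and 11 others were added. Calls were also added by fitting 2 contexts alone (4), 1 threshold for all sections (5), adjusting over all 6 comparisons (3), DESeq2 (2) and at least 2 UMIs of T or Shh (1). DESeq2 gave 12, 468 and 1348 for the first 3 comparisons, and no low-count filter 13 and 73 for the first 2. Asking for at least 2 UMIs of T or Shh gave 6, 5, 396 and, for Shh against Tubb3-high spots, 2177. A top 5% for Tubb3 and Col2a1 gave 7 and 163 for the first 2 comparisons, and a top 20% gave 356, 1591 and 2888 for Shh against Col2a1-high, Shh against Tubb3-high and T against Tubb3-high spots. One threshold over all sections gave 21, 292, 1214 and, for Shh against Tubb3-high spots, 5461. Adjusting p over all 6 comparisons gave 153, 726 and 1358 for the first 3. The cause of these shifts was not tested, apart from the loss of samples in the smaller fits. None of the 18 called member differences changed sign under the 14 alternatives, and none kept its call under all of them. Among member differences that did not pass, signs changed on leaving out 1 section in the following log2 ranges. For Shh without T against T spots they were Slit3 -0.37 to 0.068, Robo2 -0.42 to 0.14, Robo3 -0.44 to 1.37, Dcc -0.25 to 0.78 and Unc5c -0.14 to 0.63. For Tubb3-high against Col2a1-high spots they were Unc5b -0.92 to 0.11. For Shh without T against Tubb3-high spots they were Robo1 -0.37 to 0.17, Slit1 -0.0027 to 1.06, Slit2 -0.20 to 0.51 and Unc5c -0.16 to 0.62. With at least 2 UMIs of T or Shh, signs changed for Unc5b (-0.60 in Shh without T against T spots), Slit3 (0.077 in T against Col2a1-high spots), Dcc (-0.11 in T against Col2a1-high spots), Unc5c (-0.15 in Shh without T against Tubb3-high spots), Slit1 (0.39 in T against Tubb3-high spots). With the top 20%, Robo1 changed to -0.18 in T against Col2a1-high spots. The count of members at least 2-fold apart between E13.5 and E11.5 was again 3 at 5000 UMIs per spot and without globin and mitochondrial genes in the total. Few Robo3 UMIs limit its values at E13.5, with 9 in a section of 28754555 UMIs, against 1113 in the 25490744 UMIs of E12.5.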
